A study of Mus musculus with 2 samples.

Results

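The genes described here encode the aldo-keto reductases (Akr), alcohol dehydrogenases (Adh), aldehyde dehydrogenases (Aldh) and carboxylesterases (Ces). They were chosen by symbol alone: every gene whose name begins with one of these 4 stems followed by a digit, with the row of highest mean used where a symbol had several. This gave 59 genes of the 20722 symbols in the table: 15 Akr, 6 Adh, 19 Aldh and 19 Ces genes. Of these, 25 had a mean normalised read count of at least 20 over the libraries and are called measured (9 Akr, 3 Adh, 9 Aldh and 4 Ces genes).

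These enzymes act on alcohols, aldehydes, ketones and esters. Alcohol dehydrogenases oxidise ethanol and retinol to aldehydes, aldo-keto reductases turn aldehydes, sugars and ketosteroids into alcohols, and aldehyde dehydrogenases oxidise aldehydes to acids, retinoic acid among them. Carboxylesterases cleave esters of drugs and dietary lipids. All 4 families are known from the absorptive epithelium of the small intestine as well as from liver.

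Messenger RNA came from villi purified from mouse small intestine, with 1 library per genotype, both of strain C57BL/6. The control library, labelled WT, carried Rosa26-CreERT2, a tamoxifen-inducible Cre recombinase driven from a locus that is active in most cell types, and was Cdkn2a-/-. The other carried the same alleles together with Ring1a-/- and Ring1bf/f, genes of the ubiquitin ligases of Polycomb repressive complex 1 that mark histone H2A and hold developmental genes silent. Both genotypes received 3 tamoxifen injections, and villi were taken at day 6. No age is given in the labels.

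The libraries held 775827 reads (control) and 1058196 reads (dKO, double knockout), recovered from the deposited values. The targeted genes were not lower beyond counting error, with Ring1 at 10 and 10 reads and Rnf2 (Ring1b) at 59 and 82, and counts over whole transcripts do not show deleted exons. The second library is therefore called dKO-labelled. Xist had 80 and 1 reads and the Y-linked gene Ddx3y 0 and 131, so sex and genotype label cannot be told apart in any result below. With 1 library per genotype there is no replicate check and no test. Ratios are reads of the dKO-labelled library over reads of the control after division by the deposited size-factor ratio of 1.11. Each has a 95% exact (Clopper-Pearson) counting interval, which covers counting error only. A gene is called higher or lower at 2-fold on the scale log2((dKO + 1)/(control + 1)) of the normalised read counts.

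Most measured members were higher in the dKO-labelled library. In each of the 4 families the member with the most control reads had the smallest ratio of those measured: Akr1a1, Adh6a, Aldh4a1 and Ces2c. Control reads both rank these members and form the denominator of the ratio. The filter admits members with few control reads only where their dKO-labelled value is high. So this pattern is partly built in and is given as a description. Of the 25 measured members, 17 were at least 2-fold higher and 0 lower, against 26.2% higher and 4.18% lower among all 6001 measured genes. Their median log2 ratio was 1.77, against 0.51 for all measured genes. The filter itself favours this direction, since 6 of the 25 passed through the dKO-labelled library alone, with a control value under 20. Among the 19 members with a control value of at least 20, 11 were higher and 0 lower, against 18.1% and 5.72% of all genes at that level. At a mean of at least 100, 9 of 17 were higher and 0 lower, against 14.8% and 4.31%.

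The direction of single genes near a ratio of 1 follows the scaling. Over all measured genes 1574 were higher and 251 lower with the deposited size factors, and 664 and 652 with TMM scaling. Relative to the median of all measured genes, 14 members lay at least 2-fold above and 1 below, against 11.8% and 10.4% of all measured genes. The log2 ratios of Akr1a1, Adh1 and Aldh4a1 changed sign with TMM, upper-quartile and median scaling, those of Aldh2 and Aldh3b1 with the upper quartile, and that of Aldh4a1 also with total counts. No other measured member changed sign under these 4 scalings.

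**Figure D1:**
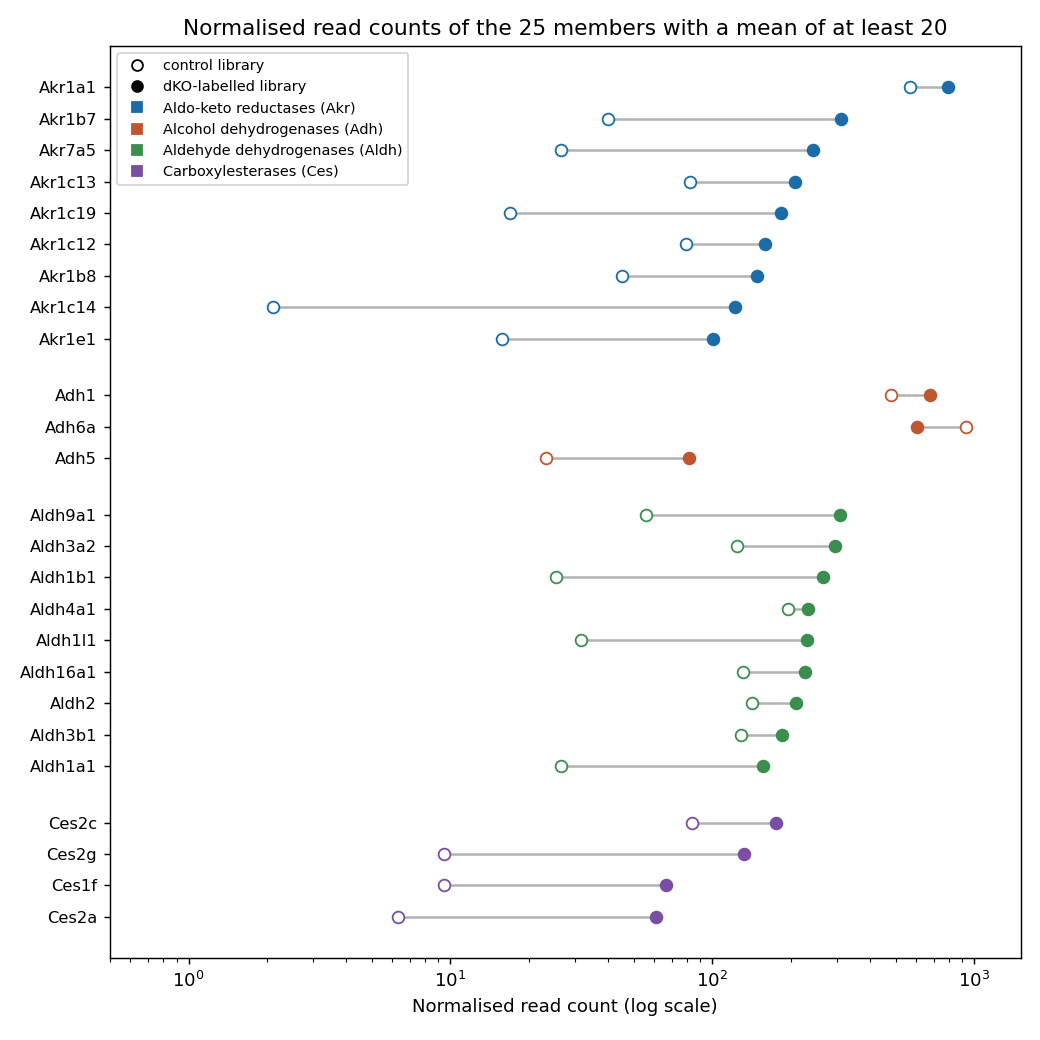
Normalised read counts (log scale) of the 25 measured members, with open circles for the control library and filled circles for the dKO-labelled library, coloured by family and joined by a grey line. Adh6a is the only member whose filled circle lies to the left, at 603 against 927, and the longest line is that of Akr1c14, from 2.11 to 122.

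**Figure D2:**
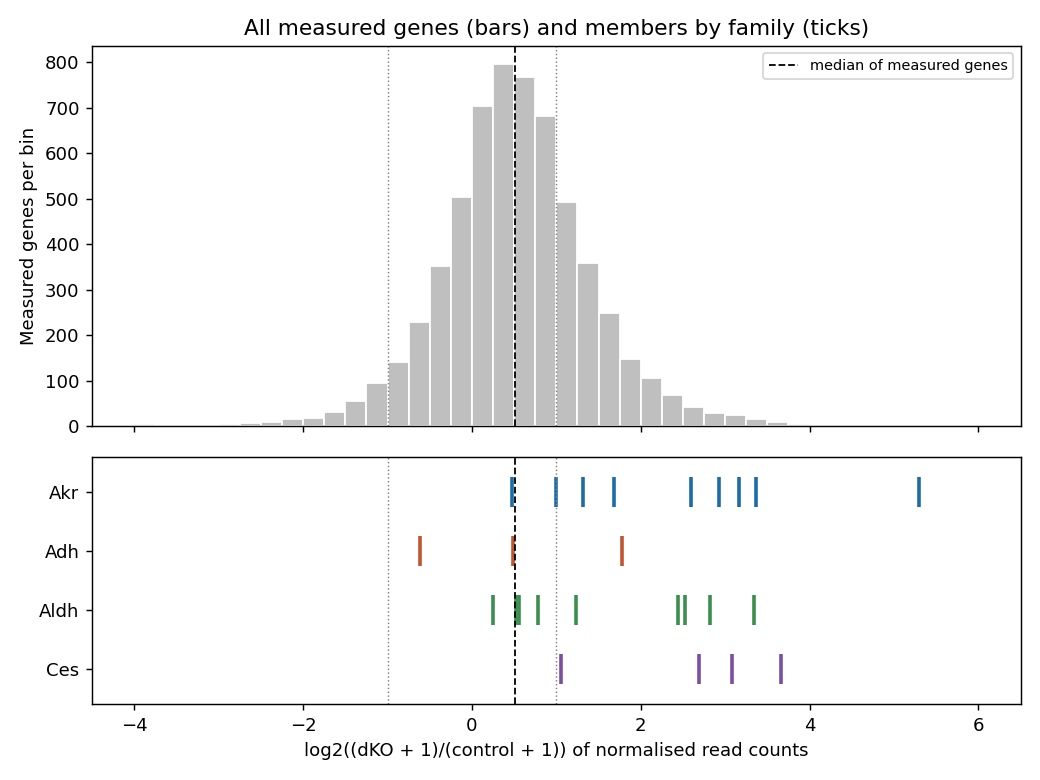
Upper panel: number of measured genes per bin of the log2 ratio of normalised read counts, with the median of 0.51 dashed and 2-fold dotted. Lower panel: 1 tick per measured member, by family; the 4 Ces ticks lie between 1.06 and 3.67 and the 3 Adh ticks between -0.62 and 1.77.

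The aldo-keto reductases were 2.58-fold higher in sum in the dKO-labelled library, with 833 control reads and 2389 dKO-labelled reads (interval 2.39 to 2.80). Summed over all genes the ratio was 1.23, and the family sums here and below are to be read against it. Of the 9 measured Akr genes 7 were at least 2-fold higher, against 26.2% of all measured genes, with a median log2 ratio of 2.60. Of the 7, Akr1c14, Akr1c19 and Akr1e1 passed the filter only through the dKO-labelled library, and with a control value of at least 20 the count was 4 of 6. Akr1a1, the general aldehyde reductase that also serves vitamin C synthesis in mice, differed least of the measured Akr genes, at 540 and 834 reads (1.39-fold, 1.25 to 1.55). It held 64.8% (61.5 to 68.1) of the control's Akr reads and 34.9% (33.0 to 36.9) of those of the dKO-labelled library. This share does not depend on scaling. Without Akr1a1 the Akr reads were 293 and 1555, a ratio of 4.78 (4.22 to 5.44).

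Within the Akr1b branch, aldose reductases and their relatives, 2 of 4 genes were measured and both were higher, against 26.2% of all measured genes. Akr1b7, which reduces aldehydes released in steroid and lipid metabolism, had 37 and 326 reads (7.94-fold, 5.64 to 11.5). Akr1b8 had 42 and 155 reads (3.33-fold, 2.35 to 4.80). The intervals of these 2 genes do not overlap, so Akr1b7 differed more than Akr1b8 by more than counting error. Akr1b10 had 8 and 10 reads, and its interval of 0.400 to 3.29 leaves no direction. Akr1b3, the classical aldose reductase that makes sorbitol from glucose, was listed at 0 reads in both libraries. A listed 0 does not show absence in this table: Fth1, the ferritin heavy chain that every cell uses, had 1 and 0 reads. Of the 50-base windows of the Akr1b3 transcript, 59.9% also occur in transcripts of other genes, 56.2% in the pseudogene Gm6644 alone. Whether Akr1b3 reads were lost to shared sequence was not tested.

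The Akr1c branch, hydroxysteroid dehydrogenases that lie side by side on chromosome 13 apart from Akr1cl on chromosome 1, was uneven. Akr1c14, an alpha-hydroxysteroid dehydrogenase acting on androgens and other steroids, had a single control read against 127 reads. Its ratio of 114 has an interval from 20.2 to 4557. Akr1c19 had 15 and 192 reads (11.5-fold, 6.82 to 21.02). Akr1c13 had 77 and 216 reads (2.53-fold, 1.94 to 3.32) and Akr1c12 had 74 and 166 (2.02-fold, 1.53 to 2.70). On the log2 scale used for calls Akr1c12 was at 1.00 after rounding, just short of 2-fold. So the branch held a pair of genes with ratios near 2 and a pair with much higher ones. The intervals of Akr1c14 and Akr1c19 do not overlap those of Akr1c12 and Akr1c13. But Akr1c14 and Akr1c19 passed the filter only through the dKO-labelled library. This contrast is therefore partly built in and is given as a description. Akr1c18, which inactivates progesterone, and Akr1c6 had 0 reads in both libraries, and Akr1cl had 0 and 1.

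Akr1c12 and Akr1c13 are close copies, and their separate counts are uncertain. Their coding sequences of 969 bases are 96.2% identical, and 28.6% of the 50-base windows of each transcript occur in the other. Akr1c14 and Akr1c19 are 72.0% and 77.8% identical to Akr1c13, and none of their windows occurs in another gene's transcript. The middle of the coding sequence, bases 439 to 528 counted from the start codon in GENCODE M21 transcripts, shows how close each copy is. The sequences are shown because the pair with similar ratios is also the pair with shared sequence, and capitals mark bases that differ from Akr1c13.
Akr1c13: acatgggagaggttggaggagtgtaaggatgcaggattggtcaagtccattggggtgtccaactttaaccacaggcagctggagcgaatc
Akr1c12: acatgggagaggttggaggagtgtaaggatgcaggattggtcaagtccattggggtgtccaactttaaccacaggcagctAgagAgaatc
Akr1c14: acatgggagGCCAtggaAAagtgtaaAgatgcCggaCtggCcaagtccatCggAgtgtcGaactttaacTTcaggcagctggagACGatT
Akr1c19: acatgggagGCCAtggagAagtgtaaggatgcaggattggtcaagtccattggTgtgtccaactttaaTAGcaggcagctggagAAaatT
In these 90 bases Akr1c12 differs from Akr1c13 at 2 positions, Akr1c19 at 12 and Akr1c14 at 19. Both of the Akr1c12 differences lie in the last 10 bases.

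Akr7a5 and Akr1e1 were also higher. Akr7a5, which reduces succinic semialdehyde and the aldehyde of aflatoxin, had 24 and 255 reads (9.58-fold, 6.29 to 15.2). Akr1e1, which reduces anhydrofructose, had 14 and 105 reads (6.76-fold, 3.86 to 12.8). Akr1d1, the steroid reductase of bile acid synthesis and a gene of liver, had 1 and 2 reads.

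The alcohol dehydrogenases were the one family whose interval for the sum held 1, with 1364 and 1448 reads (ratio 0.957, 0.888 to 1.03) at the deposited scaling. This interval lies below the ratio of 1.23 for the sum over all genes at that scaling. The Adh sum was lower with other scalings, at 0.669 with TMM. Adh6a led all 59 members in the control, per kb as well as in reads, and was the only measured member with fewer reads in the dKO-labelled library, at 879 and 634 (ratio 0.650, 0.586 to 0.721). Its log2 ratio of -0.62 is short of 2-fold, and it was -1.13 relative to the median of all measured genes. Adh1, the class I enzyme that oxidises ethanol and retinol, had 455 and 710 reads (1.41-fold, 1.25 to 1.59), which is the median ratio of all measured genes, 1.42. The make-up of the family differed beyond counting error: Adh6a held 64.4% (61.8 to 67.0) of the control's Adh reads and 43.8% (41.2 to 46.4) of the dKO-labelled library's, and Adh1 33.4% (30.9 to 35.9) and 49.0% (46.4 to 51.6).

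Adh5, the glutathione-dependent formaldehyde dehydrogenase that also reduces S-nitrosoglutathione, was the only Adh gene called higher, with 21 and 85 reads (3.65-fold, 2.24 to 6.20). That is 1 of 3 measured Adh genes, near the 26.2% of all measured genes, so the count is no result about the family. Adh7, the retinol-active enzyme of the upper digestive tract, had 0 and 1 reads, and Adh4 had 3 and 4. The pseudogene Adh6-ps1 had 6 and 14 reads, with an interval of 0.759 to 6.68. In chromosomal order the genes run Adh7, Adh1, Adh6a, Adh6-ps1, Adh4 and Adh5 on chromosome 3, so the lower Adh6a and the higher Adh5 belong to the same cluster.

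**Figure D3:**
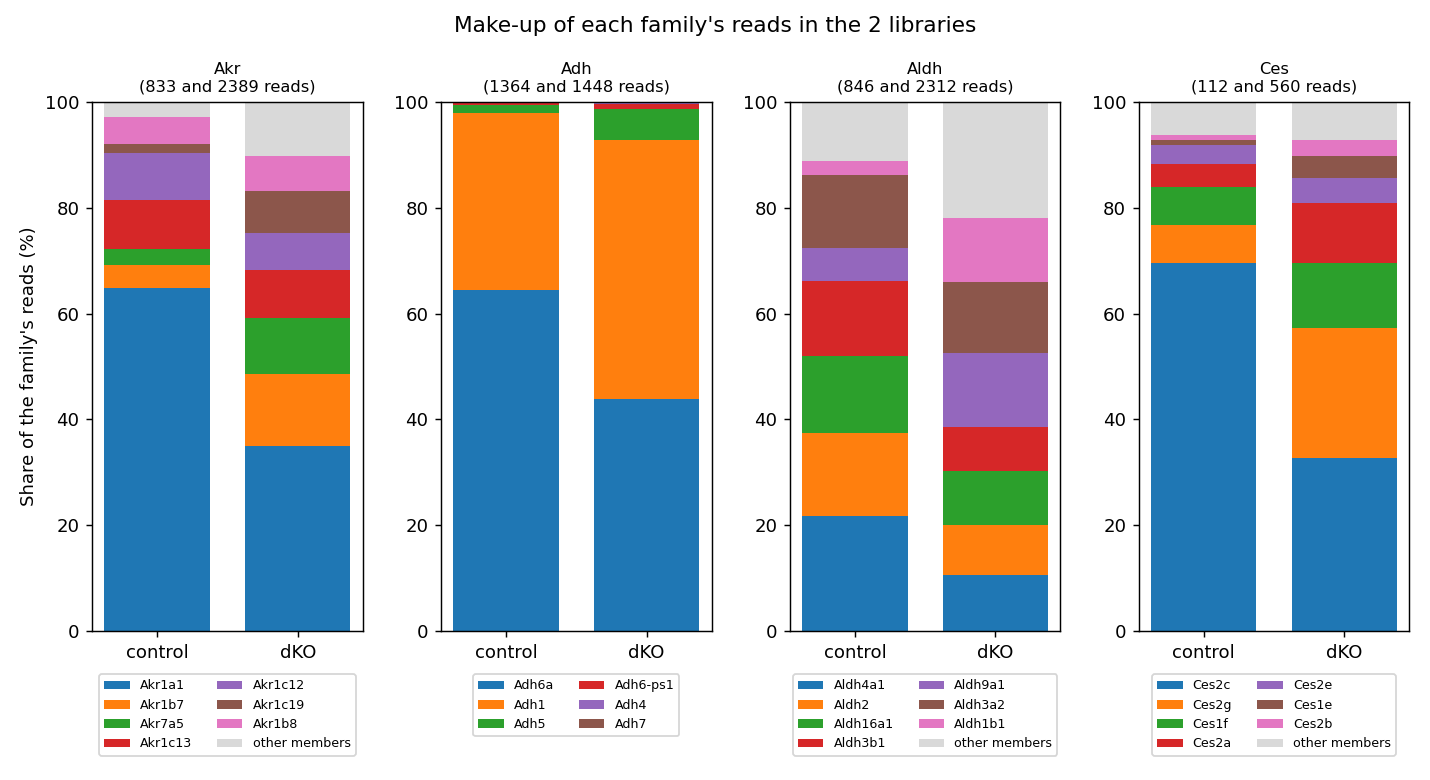
Stacked bars give each member's share of its family's reads (%) in the control and dKO-labelled libraries, for the 7 members with the largest share and the rest in grey. The lowest segment, the most-read member in the control, is smaller in the dKO-labelled library in all 4 families: Akr1a1 64.8% to 34.9%, Adh6a 64.4% to 43.8%, Aldh4a1 21.7% to 10.5% and Ces2c 69.6% to 32.7%. Picking the member by its control reads favours this direction.

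The aldehyde dehydrogenases were 2.46-fold higher in sum, with 846 and 2312 reads (2.28 to 2.67). Of 9 measured Aldh genes 5 were at least 2-fold higher, against 26.2% of all measured genes. The other 4 were under 2-fold, and the median log2 ratio of the 9 was 1.24. The highest ratio among the measured Aldh genes was that of Aldh1b1, a mitochondrial enzyme for acetaldehyde and retinal, with 23 and 278 reads (10.9-fold, 7.11 to 17.5). Aldh2, the main mitochondrial acetaldehyde dehydrogenase, had 133 and 219 reads (1.48-fold, 1.19 to 1.86). The order of this mitochondrial pair differed between the libraries: in normalised read count per kb of transcript Aldh2 led in the control, with 36.5, and Aldh1b1 in the dKO-labelled library, with 115 against 54.0 for Aldh2.

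The retinal dehydrogenases, which make retinoic acid, had 38 and 220 reads over 4 Aldh1a genes (5.22-fold, 3.69 to 7.57). Aldh1a1 supplied most of them, with 24 and 163 reads (6.12-fold, 3.97 to 9.83), and was the only one measured. Aldh1a3 had 6 and 25 reads and Aldh1a2 had 1 and 14, with lower interval limits of 1.50 and 1.92. Aldh1a7 had 7 and 18 reads, and its interval of 0.924 to 6.57 holds 1. It is 91.6% identical to Aldh1a1 in the coding sequence and shares 7.49% of its windows with it. Aldh1l1, the cytosolic formyltetrahydrofolate dehydrogenase, had 29 and 241 reads (7.49-fold, 5.08 to 11.4), while Aldh1l2, its mitochondrial relative, had 3 and 1.

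Among enzymes of fatty aldehydes, Aldh3a2, the microsomal fatty aldehyde dehydrogenase, had 117 and 309 reads (2.38-fold, 1.92 to 2.97). It lay 0.73 above the median of all measured genes on the log2 scale, short of 2-fold. Aldh3b1, which acts on aldehydes from lipid peroxidation, had 121 and 194 reads (1.45-fold, 1.15 to 1.83). Aldh3b2 had 11 and 2 reads, a ratio of 0.164 (0.0177 to 0.751), at a level below the filter. It shares 24.2% of its windows with other genes, mostly with Aldh3b3.

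Enzymes of amino acid and carnitine metabolism were divided. Aldh9a1, which works in carnitine synthesis, had 52 and 323 reads (5.60-fold, 4.17 to 7.66). Aldh16a1 had 123 and 236 reads (1.73-fold, 1.38 to 2.17). Aldh4a1, of proline breakdown, had the highest mean of the Aldh genes and the smallest ratio among those measured, at 184 and 243 reads (1.19-fold, 0.979 to 1.45). Of its windows 45.0% occur in Gm21969, so its count is uncertain. Aldh5a1, of GABA breakdown, had 4 and 30 reads (6.76-fold, 2.38 to 26.4), at a level below the filter. Aldh6a1, of valine breakdown, had 6 and 15 reads and Aldh8a1 2 and 0. Aldh18a1, of proline synthesis, had 0 reads in both libraries and Aldh7a1, of lysine breakdown, 0 and 1, although none of the windows of either is shared with another gene. A count of 0 allows up to 3 reads by counting error alone (one-sided 95% limit), and, as Fth1 shows, zeros here need not come from a low level of RNA.

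The carboxylesterases had the largest family ratio, with 112 and 560 reads (4.51-fold, 3.67 to 5.57). All 4 measured Ces genes were called higher, against 26.2% of all measured genes, but 3 of them passed the filter only through the dKO-labelled library. Ces2c, an intestinal esterase, held 69.6% (60.2 to 78.0) of the control's Ces reads and 32.7% (28.8 to 36.7) of the dKO-labelled library's. It had 78 and 183 reads (2.11-fold, 1.61 to 2.79) and lay 0.55 above the median of all measured genes on the log2 scale. Without Ces2c the Ces reads were 34 and 377, a ratio of 9.99 (7.03 to 14.6).

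The Ces2 genes lie in a row on chromosome 8. Ces2g had 8 and 138 reads (15.5-fold, 7.67 to 36.7) and Ces2a 5 and 63 (11.4-fold, 4.62 to 36.2). Ces2e had 4 and 27 reads and Ces2b 1 and 17, both below the filter, with lower interval limits of 2.12 and 2.40. The interval of Ces2g lies above that of Ces2c, so these genes of the row did not differ alike. But Ces2g passed the filter only through the dKO-labelled library, so this contrast is partly built in. Ces2f and Ces2h, in the same row, had 1 and 0 reads each. Ces2c is 92.1% identical to Ces2b in the coding sequence, and 42.2% of its windows occur elsewhere, 38.2% in the pseudogene Ces2d-ps. Ces2d-ps had 1 and 4 reads. Ces2g shares only 3.95% of its windows and Ces2a 22.2%.

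The Ces1 genes, which include lipid hydrolases and an esterase of plasma, form a second row on chromosome 8 and had 13 and 126 reads in sum over 7 genes (8.74-fold, 4.93 to 16.9). Ces1f, with 8 and 69 reads (7.77-fold, 3.73 to 18.7), was the only one measured. Ces1e had 1 and 23 reads (20.7-fold, 3.37 to 854), Ces1g, an esterase known in lipid handling, 2 and 14, and Ces1c, the plasma esterase, 1 and 11. Ces1d, a triacylglycerol hydrolase, had 1 and 7. These 5 genes all had more reads in the dKO-labelled library, and Ces1a and Ces1b had 0 and 0 and 0 and 2. Over Ces3a, Ces3b, Ces4a and Ces5a the control had 0 reads and the dKO-labelled library 2.

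**Figure D4:**
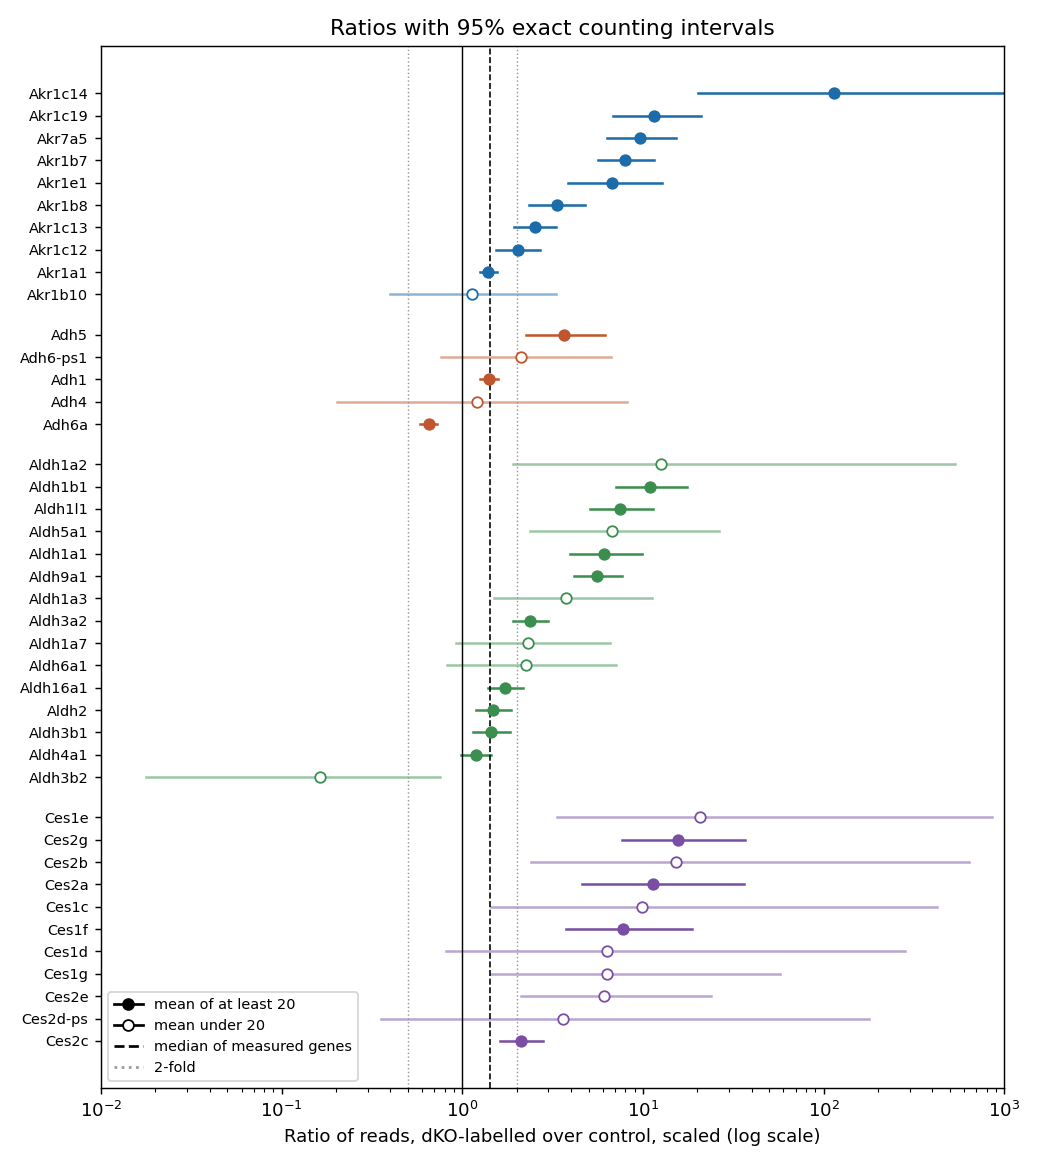
Ratio of reads (dKO-labelled over control, scaled, log axis) with 95% exact counting intervals for every member with more than 3 reads in a library; filled points are measured members and open points have a mean under 20, and the upper limit of Akr1c14 runs off the axis. Adh6a and Aldh3b2 are the points whose intervals lie below 1, and the dashed line is the median of measured genes at 1.42.

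Most measured members differed from a ratio of 1 by more than counting error. The interval lay above 1 for 23 of 25 members and below 1 for Adh6a, and it held 1 for Aldh4a1. Among all measured genes 52.5% had an interval above 1 and 12.1% below. Above the median ratio of 1.42 were the intervals of 18 members, and below it that of Adh6a. The share of all measured genes beyond that ratio was not counted, so the 18 are no result about the members. In the authors' deposited table, 8 members had an unadjusted DESeq p-value under 0.05, all higher: Akr1c14, Ces2g, Aldh1b1, Akr1c19, Akr7a5, Akr1b7, Aldh1l1 and Ces2a. The deposited p-value of Akr1c14 was 0.00148. In the authors' deposited table as a whole, 0.502% of symbols were higher at that threshold. With no replicates behind them, these p-values do not measure the spread between replicates.

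The 34 members with a mean under 20 had 71 control reads and 245 dKO-labelled reads in sum. Of them 22 had more reads in the dKO-labelled library, 5 had fewer and 7 had no read in either. The 5 with fewer were Aldh3b2, Aldh8a1, Aldh1l2, Ces2f and Ces2h, named here after their values were seen. These counts are not scaled for the greater depth of the dKO-labelled library. The same split over all symbols with a mean under 20 was not counted, so these counts are no result about the members.

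Levels between genes were compared as normalised read count per kb of transcript. In the control Adh6a led with 691 per kb, followed by Akr1a1 with 401 and Adh1 with 322, and the next member, Aldh3b1, had 66.8. In the dKO-labelled library Akr1a1 led with 558 per kb, and Adh1 with 452 and Adh6a with 450 stood level. Akr1b7 followed with 242, Akr7a5 with 189, Akr1c13 with 163 and Akr1c19 with 148. The same 3 enzymes were therefore at the head in both libraries. Of the 4 that came next in the dKO-labelled library, Akr1c13 was already among the next in the control, with 65.1 per kb, and Akr1b7, Akr7a5 and Akr1c19 had 31.2, 20.4 and 13.6. The most abundant carboxylesterase, Ces2c, had 42.2 and 88.7 per kb.

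Transcript length moved with the ratio over all genes. Measured genes with transcripts of up to 2088 bases had a median log2 ratio of 0.65 and 31.4% were at least 2-fold higher, those of up to 3741 bases 0.54 and 28.3%, and longer ones 0.32 and 19.0%. Most members are short: 15 fell in the short class, with 10 higher, 9 in the middle class, with 7 higher, and 1 in the long class, with 0 higher. The part of length in the members' ratios was not tested beyond these classes.

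Other reductases, hydrolases and clearance enzymes, not all with the members' substrates, were examined as lists. These are to be read against 26.2% higher and 4.18% lower among all measured genes. Of 16 measured carbonyl and steroid reductases outside the Akr family, 7 were called higher and 0 lower, with a median log2 ratio of 0.92. They included Hsd17b4, a peroxisomal beta-oxidation enzyme (24 and 136 reads), the prostaglandin reductase Ptgr1 (63 and 310), the carbonyl reductase Cbr1 (74 and 348) and Dcxr, the xylulose reductase (45 and 198). Of 10 other esterases and hydrolases 6 were higher and 0 lower (median 1.36). Aadac, the arylacetamide deacetylase, had 4 and 65 reads, the amide hydrolase Faah 12 and 106, the epoxide hydrolase Ephx1 6 and 51 and the paraoxonase Pon3 19 and 77. Of 7 genes of glyoxal, peroxide and aldehyde clearance 2 were higher and 1 lower (median 0.47), a share of higher genes near that of all measured genes, with catalase (Cat) at 40 and 258 reads and xanthine dehydrogenase (Xdh) at 1060 and 543. Against the median of all measured genes, 6 reductases lay at least 2-fold above and 0 below, 5 and 1 of the esterases and hydrolases, and 1 and 2 of the clearance genes, where all measured genes had 11.8% above and 10.4% below.

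Of 13 other measured retinoid genes 3 were higher and 1 lower, shares near the 26.2% and 4.18% of all measured genes, so the count is no result about retinoid genes. Their median log2 ratio was 0.25, against 0.51 for all measured genes. Lrat, which esterifies retinol, had 1 and 40 reads, the retinol saturase Retsat 10 and 58 and the retinal reductase Dhrs4 10 and 55. Rdh10, which makes retinal from retinol, had 133 and 55 reads, a ratio of 0.373 (0.267 to 0.514).

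Genes known to respond to nuclear receptors and to NRF2, factors known to act on many of these enzymes, were counted as lists, again beside 26.2% higher and 4.18% lower among all measured genes. Of 21 measured PPARA targets 11 were higher and 0 lower (median log2 ratio 1.08), and 5 lay at least 2-fold above and 2 below the median of all measured genes. The list held Acaa2 at 35 and 356 reads, Angptl4 at 7 and 55 and Ehhadh at 29 and 152. Of 14 PXR and CAR targets 8 were higher and 1 lower (median 1.44), with Cyp2c55 at 3 and 202 reads, Cyp2b10 at 30 and 250 and Cyp3a44, a gene with close paralogs, at 41 and 3. Of 21 NRF2 targets, 9 were higher and 1 lower (median 0.64), with Gstm3 at 7 and 202 reads, Gstm1 at 8 and 126 and Blvrb at 8 and 46. Among 7 measured receptors and sensors 2 were higher, Hnf4g (58 and 250 reads) and Vdr (108 and 332), and 0 lower (median 0.21), which is near the share of all measured genes. Ppard had 300 and 273 reads (ratio 0.820, 0.694 to 0.970) and Ahr 28 and 20 (0.644, 0.344 to 1.19). Nfe2l2, which encodes NRF2, had 78 and 175 reads (2.02-fold, 1.54 to 2.68), with a log2 ratio of 1.00 that was just short of 2-fold. Against the median of all measured genes, 7 PXR and CAR targets lay at least 2-fold above and 2 below, 6 and 1 of the NRF2 targets, and 1 and 1 of the receptors.

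Promoter windows of RefSeq (GRCm38.p6, 250 bases before to 50 after the transcript start) were found for 23 of the 25 measured members. The core of the antioxidant response element, TGACNNNGC on either strand, occurred in 3 of them: Aldh9a1, Adh6a and Akr1c19. That is 13% of symbols, against 16.9% of 4550 measured symbols with a window and 14% of all 27025. In Akr1c19 the match lay after the start, at bases 8 to 16. A direct repeat of AGGTCA with 1 base between the copies is the DR1 element of HNF4 and PPAR dimers. It occurred on either strand in 0 of 47 members with a window and in 0.0481% of all 27025 symbols. At so low a share no match is expected in 47 genes, so the 0 says nothing about the members. The 250 bases before the start are shown for Aldh9a1, which was higher, and Adh6a, which had fewer reads, with the match in capitals. A match is a run of letters and not a shown binding site.
Aldh9a1 (chr1:167349741-167349990, plus strand): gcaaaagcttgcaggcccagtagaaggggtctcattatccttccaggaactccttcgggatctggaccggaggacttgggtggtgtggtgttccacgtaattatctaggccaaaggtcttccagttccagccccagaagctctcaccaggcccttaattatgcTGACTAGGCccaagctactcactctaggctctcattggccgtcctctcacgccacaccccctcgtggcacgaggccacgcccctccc
Adh6a (chr3:138313036-138313285, plus strand): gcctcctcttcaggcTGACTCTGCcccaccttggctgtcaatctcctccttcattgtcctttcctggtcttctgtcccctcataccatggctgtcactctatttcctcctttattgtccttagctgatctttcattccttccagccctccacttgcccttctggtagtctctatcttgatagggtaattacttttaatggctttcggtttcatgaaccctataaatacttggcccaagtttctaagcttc
The match lies 87 to 79 bases before the start in Aldh9a1 and 235 to 227 bases before it in Adh6a.

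Markers of cell types stand beside these values, and fewer cells of a type cannot be told apart from less RNA per cell. Counts of markers called are to be read against 26.2% higher and 4.18% lower among all measured genes. The shares called higher among enterocyte, goblet, Paneth, tuft and enteroendocrine markers were not above that of all measured genes. Enterocyte markers, whose cells are the main known site of these enzymes, had 16124 and 14898 reads over 11 genes (ratio 0.833, 0.815 to 0.852), with 2 higher, 1 lower and a median log2 ratio of 0.23. The direction of that sum rested on Apob, at 6742 and 2133 reads: without it the markers had 9382 and 12765 reads (ratio 1.23, 1.19 to 1.26). The markers called higher were the disaccharidases Sis (37 and 357 reads) and Lct (184 and 847). Hepatocyte markers were near 0, with 12 and 20 reads over 5 genes and Alb at 5 and 3. Fibroblast markers had 22 and 186 reads over 5 genes, with Dcn at 0 in both, and smooth muscle markers 37 and 180 over 5, with Myh11 at 0 and 1. All 3 measured genes of each were higher. Goblet markers had 5087 and 3957 reads (6 measured, 0 higher, 1 lower), Paneth markers 1693 and 3046 (5 measured, 1 higher, 0 lower), tuft markers 276 and 132 (2 measured, 0 higher, 1 lower, and 87 and 99 without Trpm5) and enteroendocrine markers 1116 and 2161 (4 measured, 1 higher, 2 lower). Endothelial markers had 52 and 48 reads, but Tie1 held 48 and 5 of these, and the other 4 genes had 4 and 43 (ratio 9.69, 3.52 to 37.2), the same direction as the fibroblast and smooth muscle markers. Immune markers had 48 and 71 reads, nearly all of Lyz2, with 0 and 7 over the other 3 genes. The nuclear RNA Malat1 had 6968 and 1211 reads. The part of these cell types and of the Malat1 difference in the members' ratios was not tested.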

How the data were processed

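Reads were processed with TopHat and DESeq on mm9, per the submitters' processing notes; versions, the counting tool and its strand setting were not given in the sources used here. In the deposited table the signal values are base means, that is, normalised read counts, 1 per RefSeq transcript and library (22040 rows). All of them (100%) are whole multiples of their column's smallest value, within 0.001 of a step, and 1 step was subtracted as an added read, which is an inference. The deposited fold (ratio) and log2 columns derive from these values, and the deposited p-value is the authors' and unadjusted.

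Each symbol was represented by its highest-mean row, and 33 symbols stored as dates took RefSeq names. No count test was possible, since 1 library per genotype leaves no residual degrees of freedom. No ratio was formed where both counts were at most 3. Lengths, coding sequences and shared 50-base windows came from GENCODE M21, which held all 59 members. Its build is not mm9, so only RefSeq promoter windows have coordinates. Protein comparison, which was planned, was replaced after seeing the data by coding sequences and shared windows.

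Members and lists were chosen with earlier results of these data known. The rule named every measured member, members under the filter that differed by 10 or more reads, and up to 4 genes per related list by absolute log2 ratio. Other members under the filter are named to account for each family; Ppard, Fth1, Malat1 and single markers were named after their values were seen. Scaling by TMM was done with edgeR 4.0.16 (R 4.3.3). The other steps ran in Python 3.11.15 (numpy 2.4.6, scipy 1.17.1, pandas 2.3.3, Biopython 1.88, matplotlib 3.10.9). The 2-fold calls and the coverage of the ratio intervals were checked on simulated counts, and the motif search on planted motifs.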

Additional observations from a re-analysis of the deposited data

How the results depend on the processing

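No paired analysis was possible because each genotype had 1 library and no result comes from a test, and leaving out a replicate was not possible for the same reason. The number of members called higher was 17 of 25 and stayed between 14 and 18 under the 4 other scalings, a pseudocount of 5, summed rows, the counting interval beyond 2-fold, thinning of the deeper library and removal of the added read. Over all genes it moved from 1574 of 6001 to 477 of 5919 with the upper quartile. With the counting interval beyond 2-fold it was 627 of 6001. For members it was 9 of 17 at a mean of at least 100 and 27 of 59 with no filter. It was 11 of 19 with a control value of at least 20, a setting chosen after seeing the data. All genes called higher at these settings were, in the same order, 358 of 2414, 3704 of 20722 and 955 of 5282. Fewer or more genes tested shape these counts. By family the counts that moved by over 1.5 times were Akr 7 to 4 of 6 and Ces 4 to 1 of 1, under both the mean of at least 100 and the control value of at least 20, Adh 1 to 0 of 2 at a mean of at least 100, and Aldh 5 to 9 of 19 and Ces 4 to 10 of 19 with no filter. Members called lower numbered 0, but 1 (Adh6a) with the upper quartile, TMM and the median set to 0. With no filter they numbered 2, both Aldh genes. All genes called lower numbered 251 of 6001, 903 of 5919 with the upper quartile and 892 of 20722 with no filter.

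Family totals moved with the scaling. Akr was 2.10 with total counts, 1.60 with the upper quartile, 1.81 with TMM, 1.82 with the median set to 0 and 4.78 without Akr1a1. Adh was 0.778, 0.592, 0.669, 0.673 and, without Adh6a, 1.51. Aldh was 2.00, 1.52, 1.72, 1.73 and, without Aldh4a1, 2.82. Ces was 3.67, 2.79, 3.15, 3.17 and, without Ces2c, 9.99. Shares of a family's reads do not depend on scaling. With 112 control reads over 19 Ces genes, single Ces genes other than Ces2c rest on at most 8 control reads each. The marker sums without 1 gene were added after seeing the data.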
